A study of Mus musculus with 12 samples.

Results

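Ak1, Ak3 and Ampd3 encode enzymes that convert AMP, and they were followed in 12 hearts of mouse embryos collected at stage E17.5, late in gestation. They were taken as the 3 probes of those names among 768 probes, and all 3 were among the 695 genes tested, those whose count averaged 20 or more. The hearts came from timed matings of mice carrying 1 disrupted copy of Slc25a1, the gene of the mitochondrial citrate carrier, and total RNA of each heart was read with NanoString nCounter, in which barcoded probes hybridised to transcripts are counted one by one with no amplification step. The 4 wild-type (WT) hearts carried no disrupted Slc25a1 copy, the 4 heterozygous knockout (HET) hearts carried 1, and the 4 homozygous knockout (KO) hearts carried no intact copy. The labels give no litter, sex, strain or assay batch, so p-values cover the spread between these hearts only. The sources used here do not say where the Slc25a1 probe lies relative to the disruption.

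Adenylate kinases move phosphate between adenine nucleotides, so that ADP made by contraction is returned to ATP with AMP as the by-product. Ak1 is the cytosolic form typical of muscle, and Ak3 is a form of the mitochondrial matrix that uses GTP to phosphorylate AMP, in step with the GTP made by the tricarboxylic acid cycle. AMP deaminases turn AMP into IMP and ammonia, and Ampd3 is the form first described in red blood cells and also made in heart. The AMP that these enzymes make and remove is also the activating signal of the kinase AMPK.

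The 3 genes lie on different chromosomes of the mouse assembly GRCm38.p6, with Ak1 (gene 11636) at chr2:32621758-32635058, Ak3 (gene 56248) at chr19:28995053-29048080 and Ampd3 (gene 11717) at chr7:110767790-110812409. RefSeq annotates 4 start sites for Ak1, 1 for Ak3 and 3 for Ampd3. Windows from 250 bases before to 30 bases after the start were read from the RefSeq promoter table of that assembly for all 8 starts, and both strands were searched for the TATA-type motif TATAAA, the GC box GGGCGG, the E-box CACGTG, the nuclear receptor site AAGGTCA and the consensus of the muscle factor MEF2. For each gene 1 window with a match, chosen after the search, is printed 5′ to 3′ along the gene's strand, to show how far the starts of genes measured side by side differ in sequence. Capitals mark the matches.
Ak1, chr2:32625187-32625466, plus strand: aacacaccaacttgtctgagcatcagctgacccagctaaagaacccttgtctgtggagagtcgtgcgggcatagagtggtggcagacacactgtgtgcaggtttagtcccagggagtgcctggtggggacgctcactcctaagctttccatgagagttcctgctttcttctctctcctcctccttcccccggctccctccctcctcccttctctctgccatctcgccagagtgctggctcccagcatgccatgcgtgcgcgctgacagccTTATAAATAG
Ak3, chr19:29047932-29048211, minus strand: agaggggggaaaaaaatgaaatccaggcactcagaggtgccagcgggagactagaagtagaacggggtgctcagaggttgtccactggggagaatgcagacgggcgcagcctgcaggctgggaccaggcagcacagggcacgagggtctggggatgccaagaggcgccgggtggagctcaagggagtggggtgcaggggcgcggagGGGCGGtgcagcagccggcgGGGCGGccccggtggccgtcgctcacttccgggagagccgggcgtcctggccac
Ampd3, chr7:110772354-110772633, plus strand: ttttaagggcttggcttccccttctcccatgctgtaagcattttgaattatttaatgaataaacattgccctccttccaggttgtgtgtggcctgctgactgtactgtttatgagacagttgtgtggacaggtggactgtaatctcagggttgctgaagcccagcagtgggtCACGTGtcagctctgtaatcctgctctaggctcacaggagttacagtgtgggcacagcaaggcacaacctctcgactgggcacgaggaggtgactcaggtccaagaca

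The Ak1 window held a MEF2 consensus match at base 21 after the start, on both strands, and TATAAA at base 22 overlapped it. The start counts as base 1. The MEF2 consensus was present in 3.07% and TATAAA in 13.1% of 32851 RefSeq promoter windows of the same length. Another Ak1 start held AAGGTCA 90 bases before it, a motif found in 4.46% of windows. The Ak3 window held GGGCGG 44 and 24 bases before the start, and 34.7% of all windows hold that motif. The Ampd3 window held CACGTG 78 bases before the start, a motif that reads the same on both strands and is in 6.79% of windows. No motif was matched in the windows of more than 1 of the 3 genes. These matches describe letters and were not tied to any measurement here.

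Slc25a1 followed the labels without overlap, at 0.613 ± 0.00721 (SD, n = 4) times Tbp in WT hearts, 0.345 ± 0.0404 in HET hearts and 0.0985 ± 0.0182 in KO hearts. Each deposited value is a probe's ratio to Tbp, a general transcription factor, in the same heart. The Tbp count recovered from these ratios ran from 276 to 433 per heart, with a counting error of 6.02% at the lower and 4.81% at the upper end that every ratio of the heart shares. Total probe counts were 1285512 to 1565516, with 5803 to 8273 for Ak1, 2487 to 3327 for Ak3 and 220 to 319 for Ampd3. All 18 pairs of hearts of the same genotype differed by more than counting error (chi-square per degree of freedom 2.81 to 29.3). None of 20 cardiomyocyte markers is on the panel, so the labelled tissue could not be checked by its contractile genes. In whole-heart RNA, fewer cells of a type and less RNA per cell cannot be told apart.

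All 3 genes had their lowest mean ratio in KO hearts, at 76.3% of WT for Ak1, 82.0% for Ak3 and 76.1% for Ampd3, but none passed the test, and for each gene the KO hearts overlapped the WT hearts. The HET means lay between the other genotypes, at 90.6%, 93.0% and 93.7% of WT. In limma across 695 genes, 0.144% were called changed in KO against WT at a Benjamini-Hochberg adjusted p under 0.05, which was 1 gene, Slc25a1, and none of the 3 enzymes was among them.

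The Ak1 ratio to Tbp in WT hearts 1 to 4 was 26.4, 18.4, 21.5 and 28.1. In HET hearts it was 25.1, 21.5, 23.3 and 15.6, and in KO hearts 14.6, 19.7, 17.6 and 20.1. WT replicate 2 was the lowest WT heart and HET replicate 4 the lowest HET heart, and 2 of 4 KO hearts lay below every WT heart. For 2.59% of all genes, all 4 KO hearts lay below all WT hearts. The group means were 23.6 ± 4.47 (SD, n = 4) in WT, 21.4 ± 4.10 in HET and 18.0 ± 2.55 in KO hearts. The log2 change in KO against WT was -0.38 (SE 0.174, 95% interval -0.75 to -0.01), with an unadjusted p of 0.0458 and an adjusted p of 0.371 in limma. Of all 695 genes, 9.50% were lower in KO hearts at an unadjusted p under 0.05.

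For Ak3, the matrix enzyme, WT hearts 1 to 4 had ratios of 10.7, 8.03, 8.14 and 11.0. HET hearts had 9.95, 9.18, 8.40 and 7.68, and KO hearts 6.62, 8.46, 7.36 and 8.63. WT replicates 1 and 4 stood above every KO heart, while WT replicates 2 and 3 lay within the KO range. The means were 9.47 ± 1.61 (SD, n = 4), 8.81 ± 0.981 and 7.77 ± 0.948 in WT, HET and KO hearts. The log2 change in KO against WT was -0.28 (SE 0.143, 95% interval -0.58 to 0.03, adjusted p = 0.371 in limma).

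The Ampd3 ratio was 0.967, 0.735, 0.761 and 1.06 in WT hearts 1 to 4. It was 0.944, 0.772, 1.08 and 0.508 in HET hearts and 0.633, 0.644, 0.639 and 0.765 in KO hearts. The HET hearts spread widest and held both the highest and the lowest value of the 12, and KO replicate 4 alone of the KO hearts reached into the WT range. The coefficient of variation was 29.8% in HET hearts, against 18.0% in WT and 9.41% in KO hearts. The means were 0.881 ± 0.159 (SD, n = 4), 0.826 ± 0.246 and 0.670 ± 0.0630, and the log2 change in KO against WT was -0.38 (SE 0.200, 95% interval -0.81 to 0.05, adjusted p = 0.371 in limma).

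**Figure D1:**
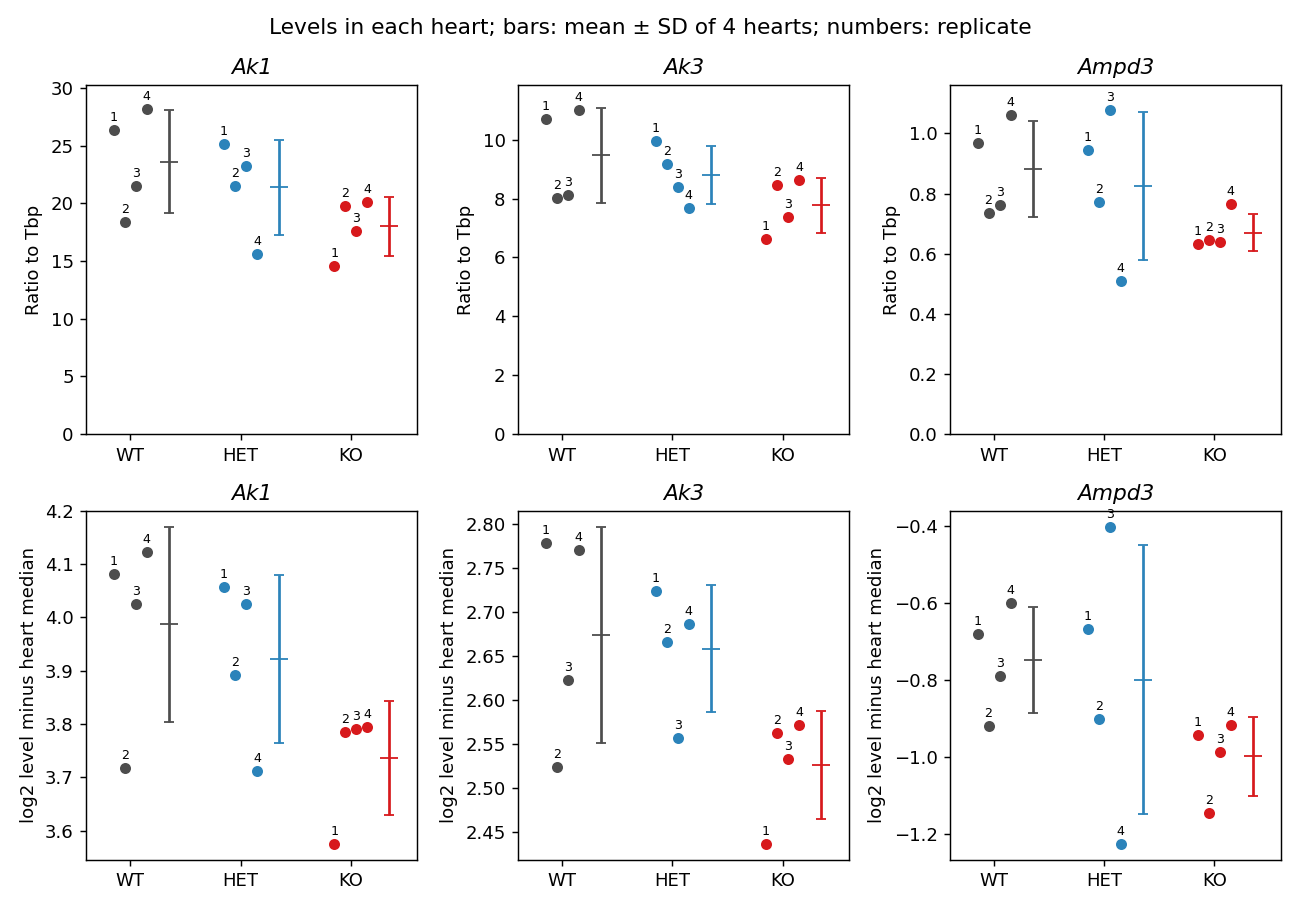
Levels of Ak1, Ak3 and Ampd3 in each heart by genotype, as ratio to Tbp (upper panels, from 0) and as log2 level minus the heart's median over 695 genes (lower panels). Points are hearts with their replicate number, and bars are the mean ± SD of 4 hearts. KO means are lowest in every panel, and WT replicate 2 lies within the KO range in all 3 lower panels.

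On the deposited scale the HET means lay closer to WT than the KO means did, and no difference passed. In HET against WT the log2 change was -0.14 for Ak1 (95% interval -0.52 to 0.23), -0.10 for Ak3 (-0.40 to 0.21) and -0.13 for Ampd3 (-0.56 to 0.30), with an adjusted p of 0.871 for each in limma. All 3 intervals include 0. KO against HET, which shares the KO hearts with the first comparison and the HET hearts with the second, gave -0.24 for Ak1 (-0.61 to 0.14), -0.18 for Ak3 (-0.49 to 0.12) and -0.25 for Ampd3 (-0.68 to 0.18), with an adjusted p of 0.937 for each in limma. In limma 0.144% of genes were called in HET against WT and 0.432% in KO against HET.

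Part of each difference was shared by most genes on the panel. The median log2 change of all 695 genes was -0.13 in KO against WT, -0.07 in HET against WT and -0.08 in KO against HET, and 520 genes (74.8%) were below WT in KO hearts. With each heart centred on its median over the 695 genes, the KO against WT change was -0.25 for Ak1 (SE 0.104, adjusted p = 0.252 in limma), -0.15 for Ak3 (SE 0.0681, adjusted p = 0.268) and -0.25 for Ampd3 (SE 0.148, adjusted p = 0.368). On that scale the HET against WT changes were -0.06, -0.02 and -0.05. Scaling to the total count gave -0.12, -0.01 and -0.12 in KO against WT, so the size of the Ak3 difference ran from -0.28 to -0.01 with the scale alone.

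On the centred log2 scale Ak1 was 4.08, 3.72, 4.02 and 4.12 in WT hearts 1 to 4, 4.06, 3.89, 4.03 and 3.71 in HET hearts, and 3.58, 3.79, 3.79 and 3.79 in KO hearts. Of the WT hearts, replicates 1, 3 and 4 were close together and above all KO hearts, and replicate 2 was not. Ak3 was 2.78, 2.52, 2.62 and 2.77 in WT, 2.72, 2.67, 2.56 and 2.69 in HET, and 2.44, 2.56, 2.53 and 2.57 in KO hearts. Its KO hearts reached above WT replicate 2 only. On this scale 0.432% of all genes were called in KO against WT, and for 3.74% all KO hearts lay below all WT hearts. Ampd3 was -0.68, -0.92, -0.79 and -0.60 in WT, -0.67, -0.90, -0.40 and -1.23 in HET, and -0.94, -1.15, -0.99 and -0.92 in KO hearts.

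The 3 hearts with low Ak1 for their genotype, WT replicate 2, HET replicate 4 and KO replicate 1, were also those with the highest summary level of 7 matrix and mesenchyme genes (Thbs2, Pdgfrb, Itga11, Cyp1b1 and 3 genes of collagen VI). That stroma score, the mean centred log2 level relative to the WT mean, was -0.17, 0.67, 0.03 and -0.53 in WT hearts 1 to 4, -0.10, 0.33, -0.04 and 0.87 in HET hearts, and 0.67, 0.03, 0.28 and -0.14 in KO hearts. The genotypes overlapped on it, with means of 0.27 in HET and 0.21 in KO hearts. After median centring all 7 genes were above WT in both, with median log2 changes of 0.25 in HET and 0.24 in KO hearts. Of all genes 47.3% in HET and 49.8% in KO hearts were below WT on that scale. Relative to Tbp 6 of 7 were above WT in HET and 4 in KO hearts, where 67.3% and 74.8% of all genes were below. All 7 genes were among those tested, and their ratios to Tbp summed to 19.5 to 33.0 in WT, 21.5 to 33.2 in HET and 22.4 to 27.9 in KO hearts.

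Without those 3 hearts, median centring gave a KO against WT change of -0.29 for Ak1 (SE 0.0576, adjusted p = 0.0402 in limma), and Ak1 passed the threshold. Ak3 gave -0.17 (adjusted p = 0.155 in limma) and Ampd3 -0.33 (adjusted p = 0.155), and neither passed. In that fit 5.47% of all genes were called, 4.60% lower, and all KO hearts lay below all WT hearts for each of the 3 enzymes, as they did for 22.9% of all genes. This combination was chosen after the data were seen. The 3 hearts left out had the lowest centred Ak1 of their genotypes, so the pass of Ak1 is no independent test. On the deposited scale without the same hearts, the changes were -0.40 for Ak1 (adjusted p = 0.183 in limma), -0.28 for Ak3 (0.285) and -0.44 for Ampd3 (0.192). Weighting hearts by their fit in limma instead, with all 12 kept, gave -0.47 for Ak1 (adjusted p = 0.0264), -0.38 for Ak3 (0.0295) and -0.52 for Ampd3 (0.0273), and all 3 passed as lower, as did 22.4% of all genes, with 23.9% called in either direction.

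**Figure D2:**
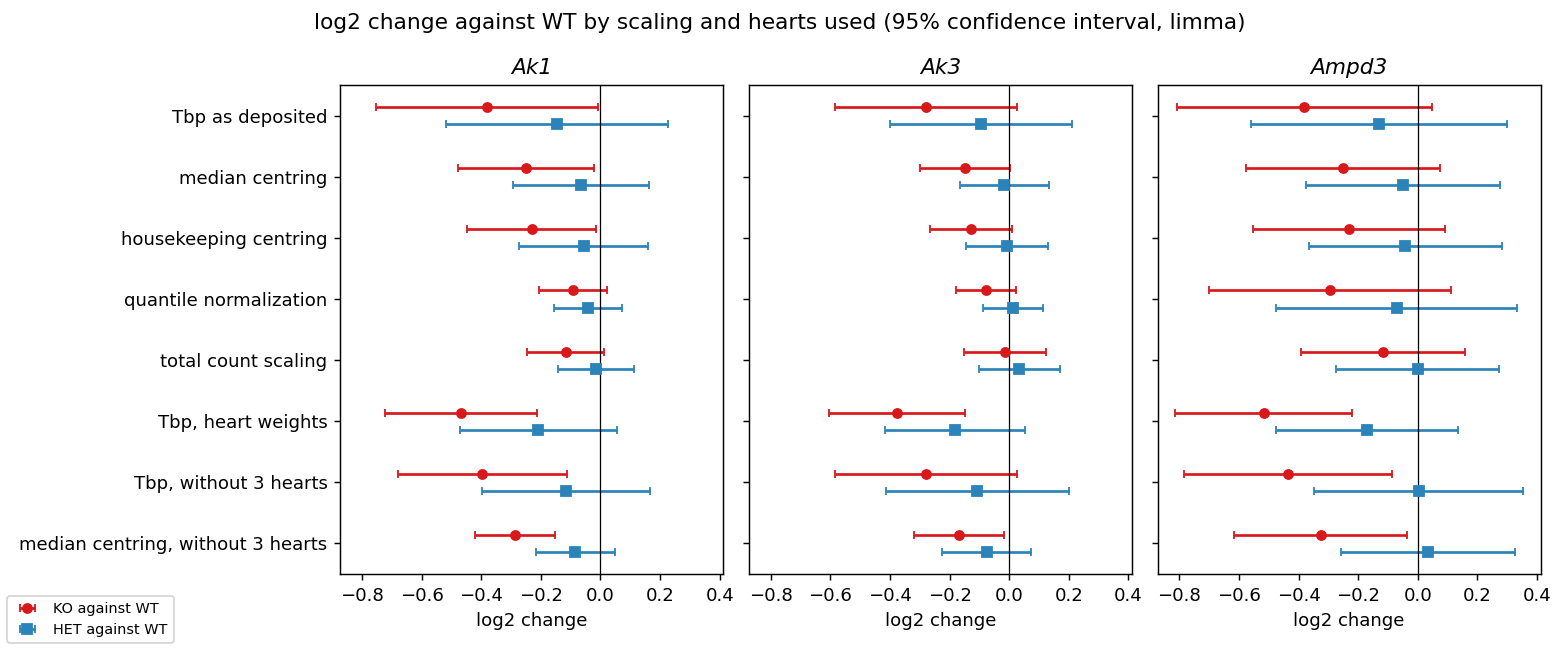
Log2 change of Ak1, Ak3 and Ampd3 in KO (circles) and HET (squares) hearts against WT under 8 choices of scale and hearts, with 95% confidence intervals from limma. Every KO point is below 0, from -0.47 to -0.09 for Ak1, and the intervals are not adjusted for the number of genes tested.

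The ratio of 2 of these probes within a heart does not depend on Tbp, and it was compared between genotypes only. The Ak1 count per Ak3 count was 2.49 ± 0.151 (SD, n = 4) in WT, 2.42 ± 0.309 in HET and 2.32 ± 0.0801 in KO hearts. The log2 difference of that balance of cytosolic and matrix kinase in KO against WT was -0.10 (SE 0.0511, two-sided exact permutation p = 0.114, adjusted p = 0.9 over 9 tests). The Ampd3 count per Ak1 count was 0.0374 ± 0.00196 in WT, 0.0381 ± 0.00589 in HET and 0.0376 ± 0.00449 in KO hearts, means that differed by less than the SD of any genotype. Ampd3 per Ak3 was 0.0930 ± 0.00255, 0.0933 ± 0.0261 and 0.0868 ± 0.00806, and its log2 difference in KO against WT was -0.10 (SE 0.0709, exact permutation p = 0.2, adjusted p = 0.9). The exact permutation tests of the other 7 differences had an adjusted p of 1, and 4 hearts against 4 allow no p below 0.0286. At that p, 1 difference alone could not pass after adjustment over the 9.

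The enzymes were set beside 29 measured genes of adenylate and purine handling, a list that holds the 3 of them. In KO against WT, 24 of the 28 tested members (85.7%) were below WT and 4 above, where 74.8% of all genes were below. None was called, where 0.144% of all genes were, and the median log2 change was -0.16 against -0.13 over all genes. After median centring 16 were below (57.1%, against 49.8% of all genes) and 12 above. The median was then -0.03 against 0.00117 over all genes, so the list sat near the panel as a whole. Ak1 (-0.38), guanine deaminase Gda (-0.43), Ak3 (-0.28), the nucleoside diphosphate kinase Nme2 (-0.29) and Ampd3 (-0.38) had the smallest unadjusted p of the list. The 4 members above WT, named after their values were seen, were Ak5 (0.24), Pnp (0.17), Aprt (0.03) and Xdh (0.01). Gda and Pnp had mean counts of only 21.4 and 25.25, near the filter of 20.

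Relative to Tbp, other isoforms on the panel had KO means closer to WT than those of Ak1 and Ampd3. Ak5, an adenylate kinase best known from brain, had a ratio to Tbp of 0.190 ± 0.0622 (SD, n = 4) in WT, 0.223 ± 0.0350 in HET and 0.217 ± 0.0164 in KO hearts. Ampd2, a widely made AMP deaminase, had 1.74 ± 0.204 in WT, 1.57 ± 0.163 in HET and 1.64 ± 0.142 in KO hearts, with a log2 change of -0.09 in KO against WT. With median centring the KO against WT change was 0.37 for Ak5 and 0.04 for Ampd2, against -0.25 for Ak1 and for Ampd3. Ak5 had only 46 to 99 counts per heart. Neither Ak5 nor Ampd2 passed the test on either scale, and the differences between isoforms were not tested. Ampd1, the skeletal muscle form, had counts of 11 to 24 per heart and was not tested. Adk, which phosphorylates adenosine to AMP, had a log2 change of -0.21 in KO against WT.

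AMPK, the kinase that reads AMP, was represented by 8 subunit and upstream genes. All 8 were below WT in KO hearts and none was called, with a median log2 change of -0.18, where 74.8% of all genes tested were below WT, 0.144% were called and the median was -0.13. After median centring 6 of 8 were below with a median of -0.05, where 49.8% of all genes were below and the median was 0.00117. The regulatory subunit Prkag1, which belongs to the AMP-binding gamma family, had -0.34 (unadjusted p = 0.0210), the catalytic subunit Prkaa2, the main one of muscle, -0.41 (0.0285), and Cab39, a partner of the upstream kinase, -0.31 (0.0348), each with an adjusted p of 0.371 in limma. Prkaa2 relative to Tbp averaged 10.3 ± 1.83 (SD, n = 4) in WT, 9.24 ± 1.60 in HET and 7.70 ± 1.36 in KO hearts, which is the order of the Ak1 means.

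The lists of muscle energy genes had more negative medians in KO against WT than the -0.13 of all genes, of which 74.8% were below WT and 0.144% called. None of the lists' genes was called. All 33 respiratory chain and ATP synthase genes were below WT in KO hearts, with a median of -0.34 and with Uqcrq at -0.50, Ndufb10 at -0.46 and Cox4i1 at -0.46. All 13 tricarboxylic acid cycle genes were below, with a median of -0.35 and with the succinate dehydrogenase subunit Sdhb at -0.48, the pyruvate carrier subunit Mpc2 at -0.47 and Idh3b at -0.40. Ak1 (-0.38) and Ampd3 (-0.38) lay near these medians, and Ak3 (-0.28) lay closer to the 7 fatty acid oxidation genes, whose median was -0.25, with Hadh at -0.33, Acadl at -0.30 and Acat1 at -0.29. Of the 8 genes of muscle-type glycolysis and glycogen, 7 were below with a median of -0.33, among them Eno3 at -0.43, Pgam2 at -0.36 and Pfkm at -0.35. After median centring the medians were -0.21, -0.22, -0.12 and -0.19 in the order of these lists.

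How the enzymes varied with these genes from heart to heart was then measured apart from genotype. Each heart was centred on its median and each genotype on its mean, a member was set against the mean log2 level of a list, and p came from the 13824 rearrangements of hearts within genotypes, adjusted over the 12 relations. Ak1 followed all 4 lists over the 12 hearts. This was not particular to them, as 104 of 694 other genes taken singly had r over 0.8 with Ak1. The lists are also not separate, as Sdhb is in both the respiratory chain and the tricarboxylic acid cycle list. Pearson's r was 0.97 with the respiratory chain (Spearman's rho 0.92, exact permutation p = 0.00094 for r and 0.00101 for rho, adjusted p = 0.00376 and 0.00608) and 0.98 with the tricarboxylic acid cycle (rho 0.91, p = 0.000506 and 0.000723, adjusted p = 0.00376 and 0.00608). It was 0.95 with fatty acid oxidation (rho 0.83, exact permutation p = 0.00137 and 0.00499, adjusted p = 0.00412 and 0.0120) and 0.92 with muscle-type glycolysis (rho 0.76, p = 0.000868 and 0.00448, adjusted p = 0.00376 and 0.0120). Without the 2 hearts farthest from the median of each score, r was 0.91, 0.95, 0.93 and 0.79, and the adjusted exact permutation p was 0.0451 for each except fatty acid oxidation, at 0.0528.

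Ak3 did not pass with any of the 4 lists. Its r was 0.49 with the respiratory chain (rho 0.42, exact permutation p = 0.205 and 0.256, adjusted p = 0.205 and 0.256) and 0.60 with the tricarboxylic acid cycle (rho 0.53, p = 0.0818 and 0.137, adjusted p = 0.0982 and 0.165). It was 0.62 with fatty acid oxidation (rho 0.59, p = 0.0471 and 0.0903, adjusted p = 0.0758 and 0.120) and 0.49 with muscle-type glycolysis (rho 0.40, p = 0.134 and 0.181, adjusted p = 0.146 and 0.197). Without the 2 farthest hearts the first 3 of these became 0.26, -0.07 and -0.12, and the last 0.48. Single hearts moved these values widely. Without HET replicate 3, r was 0.81, 0.85, 0.83 and 0.71, and all 4 relations passed. Without HET replicate 4 it was 0.63, 0.73, 0.72 and 0.70, and the last 3 passed (adjusted exact permutation p = 0.0466 each). Without WT replicate 2 it was 0.0865, 0.26, 0.34 and 0.23, and none passed.

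Ampd3 followed the respiratory chain (r 0.75, rho 0.90, exact permutation p = 0.00731 and 0.00224, adjusted p = 0.0175 and 0.00897) and the tricarboxylic acid cycle (r 0.66, rho 0.83, p = 0.0137 and 0.00666, adjusted p = 0.0273 and 0.0133). It did not pass with fatty acid oxidation (r 0.50, rho 0.62, exact permutation p = 0.0569 and 0.0537, adjusted p = 0.0758 and 0.0806) or with muscle-type glycolysis (r 0.61, rho 0.68, p = 0.0547 and 0.0327, adjusted p = 0.0758 and 0.0561). Without the 2 farthest hearts r was 0.58, 0.94, 0.84 and 0.06 in the same order, and the relation with the respiratory chain no longer passed (adjusted exact permutation p = 0.257). Whether r differed between the enzymes was not tested.

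**Figure D3:**
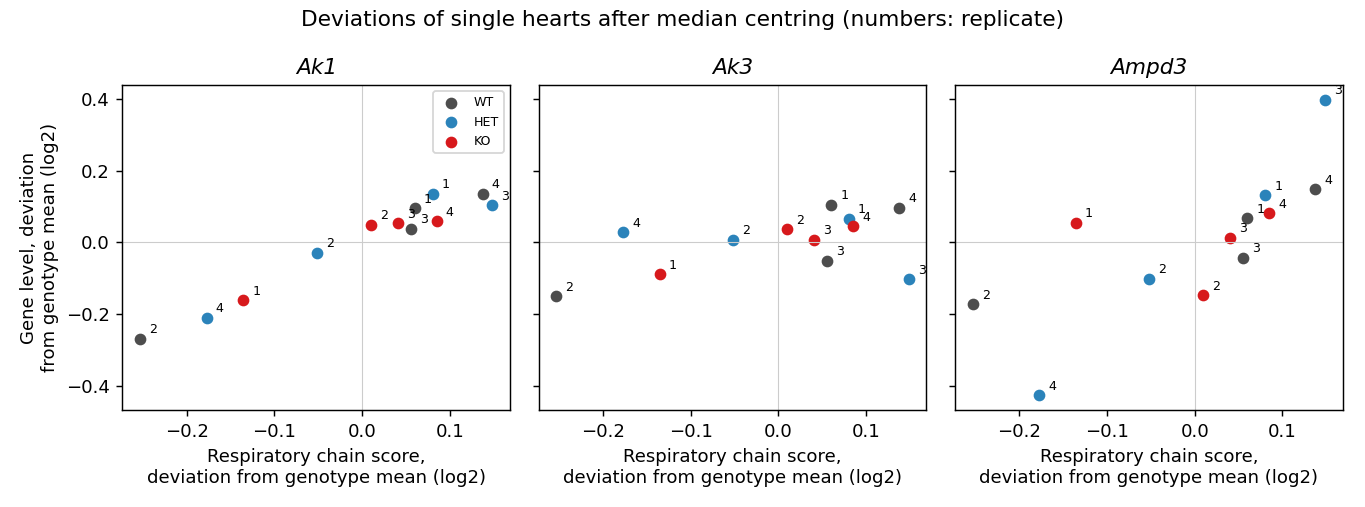
Deviation of Ak1, Ak3 and Ampd3 from the genotype mean (vertical, log2, after median centring) against the deviation of the mean level of 33 respiratory chain and ATP synthase genes (horizontal, log2) in 12 hearts, coloured by genotype and numbered by replicate. Ak1 lies close to a line (r 0.97), Ak3 scatters (r 0.49) with HET replicate 3 low for its respiratory chain level, and Ampd3 (r 0.75) has HET replicates 3 and 4 at its ends.

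The 3 hearts of highest stroma score lay at the low end of the energy gene scores. The respiratory chain score relative to the WT mean was 0.06, -0.25, 0.06 and 0.14 in WT hearts 1 to 4, 0.03, -0.10, 0.10 and -0.23 in HET hearts, and -0.35, -0.20, -0.17 and -0.13 in KO hearts. The stroma score was chosen with earlier results of these data known, so the p-values of its relations are descriptive and no independent test. Ak1 ran against the stroma score with r -0.96 over 12 hearts (rho -0.91, exact permutation p = 0.000217 and 0.000579, adjusted p = 0.00195 and 0.00521 over 9 added relations), and r was -0.89 without the 2 farthest hearts. Ampd3 did so with r -0.69 (rho -0.78, exact permutation p = 0.0193 and 0.0141, adjusted p = 0.0435 and 0.0268) and Ak3 with r -0.59 (rho -0.62, p = 0.0900 and 0.0669, adjusted p = 0.116 and 0.10), and without the 2 farthest hearts r was -0.35 and -0.61. Without the 3 hearts Ak1 had an r of 0.83 with the respiratory chain, 0.89 with the tricarboxylic acid cycle, 0.76 with fatty acid oxidation and 0.41 with glycolysis over 9 hearts, and none of these passed (adjusted exact permutation p = 0.211, 0.130, 0.231 and 0.167 from 216 rearrangements). With 216 rearrangements, 1 relation alone could not pass after adjustment over the 12, so the lack of a pass does not show that a relation is absent. The part of the stroma genes in these relations was not tested.

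A score of 9 leukocyte genes was set against the enzymes in the same way, and Ak1 and Ak3 passed with it. Ak1 had r -0.83 with it (rho -0.78, exact permutation p = 0.00282 and 0.00723, adjusted p = 0.0127 and 0.0260), Ak3 r -0.80 (rho -0.81, p = 0.0143 and 0.0149, adjusted p = 0.0430 and 0.0268) and Ampd3 r -0.37 (rho -0.50, p = 0.205 and 0.120, adjusted p = 0.230 and 0.134). Without the 2 farthest hearts r was -0.77, -0.68 and -0.20. Without the 3 hearts of highest stroma score it was -0.43, -0.81 and 0.03, with unadjusted exact permutation p of 0.333, 0.0231 and 0.949. The ratios of the 14 leukocyte genes measured, of 26 listed, summed to 2.06 to 3.86 in WT, 2.62 to 3.39 in HET and 2.03 to 3.32 in KO hearts, with none at 0. For red cells, a known site of Ampd3, 1 of 26 listed markers was measured, the transferrin receptor Tfrc, which other dividing cells also make. Its ratio was 12.1 ± 2.20 (SD, n = 4) in WT, 9.68 ± 1.27 in HET and 8.93 ± 1.03 in KO hearts, with a log2 change of -0.42 in KO against WT that did not pass. Of 12 endothelial markers Flt1 and Nos3 were measured, and the sum of their ratios was 1.41 to 1.74 in WT, 1.23 to 1.74 in HET and 1.17 to 1.93 in KO hearts. The part of these cells in the differences between genotypes was not tested.

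The 3 enzymes were also set against each other. After the same centring Ak1 and Ampd3 had r 0.68 (rho 0.87, exact permutation p = 0.0247 and 0.00868, adjusted p = 0.0444 and 0.0260), but r was 0.60 without the 2 farthest hearts and 0.73 without the 3 hearts of highest stroma score, and the unadjusted exact permutation p was then 0.122 and 0.194. Ak1 and Ak3 had r 0.59 (rho 0.59, p = 0.0889 and 0.101, adjusted p = 0.116 and 0.130) and 0.62 without the 2 farthest hearts. Ak3 and Ampd3 had r -0.01 (rho 0.30, exact permutation p = 0.976 and 0.398, adjusted p = 0.976 and 0.398), and 0.60 without the 2 farthest hearts. Leaving out the 3 hearts of highest stroma score gave r 0.31 for Ak1 with Ak3 and -0.19 for Ak3 with Ampd3. For each pair the 2 farthest hearts were chosen by the second gene named alone. The value for the last pair thus depended on which hearts were left out, and differences between the pairs were not tested.

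The genes whose deviations over the 12 hearts were most like those of each enzyme were listed by Pearson's r, as a description over hearts that share a median centring. For Ak1 these were the cytochrome oxidase subunits Cox4i1 (r 0.99) and Cox5b (0.99), the COP9 signalosome subunit Cops6 (0.99), the lipid peroxide reductase Gpx4 (0.98) and the heart-type lactate dehydrogenase subunit Ldhb (0.98). Over 694 other genes the median r with Ak1 was 0.10, and 104 genes exceeded 0.8, so these 5 head a broad group. Without the 3 hearts of highest stroma score their r with Ak1 was 0.97, 0.94, 0.94, 0.89 and 0.78 over 9 hearts.

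The genes nearest Ak3 were both subunits of ribonucleotide reductase, Rrm2 (r 0.93) and Rrm1 (0.88), the mitochondrial isocitrate dehydrogenase Idh2 (0.90), the mitochondrial NAD kinase Nadk2 (0.88) and Fcf1 (0.87), a factor of ribosome assembly. Only 14 genes exceeded 0.8 with Ak3, with a median of 0.09 over 694 genes. Without the 3 hearts their r with Ak3, in the order Rrm2, Rrm1, Idh2, Nadk2 and Fcf1, was 0.87, 0.85, 0.89, 0.92 and 0.80. The same 5 genes had r of 0.41 to 0.81 with Ak1 and of -0.18 to 0.19 with Ampd3.

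For Ampd3 the list was led by the pentose phosphate enzyme Taldo1 (r 0.95), the polyamine regulator Oaz1 (0.92), the serine dehydratase relative Sdsl (0.91), the heme farnesyltransferase Cox10 of cytochrome oxidase assembly (0.90) and the complex I subunit Ndufa13 (0.88). In all 23 genes exceeded 0.8 with Ampd3, with a median of 0.12. Without the 3 hearts these 5 had r of 0.95, 0.93, 0.81, 0.92 and 0.84. No gene was among the first 5 of more than 1 enzyme. Among the 694 genes ordered by r with Ak1, Ampd3 was at place 146 and Ak3 at place 175, and Ampd3 was at place 383 for Ak3.

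**Figure D4:**
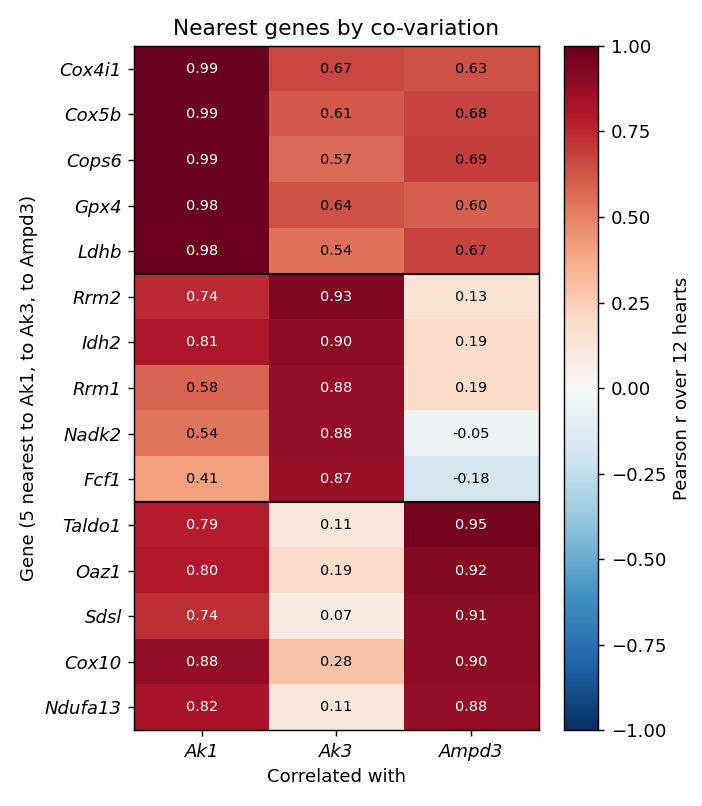
Pearson's r over 12 hearts, after median and genotype centring, of the 5 genes nearest to Ak1, to Ak3 and to Ampd3 (rows, in 3 blocks) with each of the 3 enzymes (columns). The Ak1 block has r of 0.54 to 0.67 with Ak3 and 0.60 to 0.69 with Ampd3. The Ak3 block has 0.41 to 0.81 with Ak1 and -0.18 to 0.19 with Ampd3, and the Ampd3 block has 0.74 to 0.88 with Ak1 and 0.07 to 0.28 with Ak3.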

How the data were processed

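Per the file's values, the authors deposited ratios: each of 768 probes divided by Tbp in the same heart. The sources used here give no panel name, background handling or software. Multiplying by the smallest whole number that made a heart's ratios whole within 0.01 gave counts, the smallest the ratios allow. Symbols were matched to RefSeq GRCm38.p6 for 767 of 768 probes. The log2 of (count + 1) over the Tbp count was fitted by limma 3.58.1 under R 4.3.3, with 1 mean per genotype over 12 hearts, for the 695 genes whose count averaged 20 or more. This scale understates changes of low genes. A gene was called at a p under 0.05 after Benjamini-Hochberg adjustment over all 695. The fit was tested on simulated data. Ratios between members and correlations were tested by exact permutation in Python 3.11.15 with scipy 1.17.1, and plots used matplotlib 3.10.9. Members, gene lists and the stroma score were chosen with earlier results of these data known. The genes named were the 3 enzymes, Slc25a1, up to 3 members of smallest p per list and the 5 genes nearest each enzyme by r, besides isoforms of the same enzymes and genes said to be named after their values were seen. Adk and Nme2 of the purine list and the members of the stroma score were named outside this rule. Over 12 same-numbered pairs of hearts the correlation of deviations was -0.51 to 0.36, with 5 pairs over 0.1, so the replicate numbers were not taken to pair hearts. Alternatives covered the pseudocount, filter, scale, variance model, heart weights, replicate block and hearts left out.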

Additional observations from a re-analysis of the deposited data

Results flagged for a closer look

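In 3 of 51 groups of 4 hearts the highest or lowest heart lay so far from the others that its gap, as a share of the group's range, exceeded Dixon's critical value, which chance alone exceeds in about 1 group in 20. The Ak1 level of KO replicate 1, at 3.58 on the log2 scale after median centring, lay below the other 3 KO hearts, with a gap of 0.955 of the range. The Ampd3 ratio to Tbp of KO replicate 4, at 0.765, lay above the other 3 KO hearts, with a gap of 0.917 of the range. The muscle-type glycolysis and glycogen score of WT replicate 2, at -0.12 relative to the WT mean, lay below the other 3 WT hearts, with a gap of 0.924 of the range. KO replicate 1 and WT replicate 2 were also the hearts of highest stroma score in their genotypes.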

How the results depend on the processing

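In KO against WT each enzyme stayed below WT under all 29 alternatives, at -0.49 to -0.09 for Ak1, -0.38 to -0.01 for Ak3 and -0.52 to -0.12 for Ampd3. Several alternatives cannot move this change and alter its error only. On the deposited scale these are the filter, the eBayes trend, the replicate block, fitting only the 2 genotypes and leaving out a HET heart. The 3 enzymes passed in limma with heart weights (-0.47, -0.38 and -0.52), and Ak1 also after median centring without the 3 hearts of highest stroma score (-0.29). Leaving out 1 heart gave -0.49 to -0.28 for Ak1, -0.35 to -0.20 for Ak3 and -0.46 to -0.29 for Ampd3, with no pass. Each replicate number holds 1 heart per genotype, so a replicate block leaves the changes as they were by design. With it the enzymes had an adjusted p of 0.522 in limma in KO against WT, and no call on them changed. Median centring with a block, and without the 3 hearts, were chosen after the data were seen. The 1 gene called in KO against WT became 3 with median centring, 2 with housekeeping centring, 4 with quantile normalization, 8 with total count scaling, 166 with heart weights, 2 without the 3 hearts and 38 with both. In HET against WT it became 4 with heart weights and 0 with median (50 at an unadjusted p under 0.05 in limma), housekeeping (53) and total count scaling (42), without the 3 hearts (43, or 79 with median centring), with median centring and a replicate block (43), and 0 to 1 with 1 heart left out. The 3 called in KO against HET became 7 with total count scaling or heart weights, 5 with an eBayes trend or voom weights, and 1 to 3 with 1 heart left out. In HET against WT, Ak3 changed sign with quantile normalization (0.0134) and total count scaling (0.0343), and Ampd3 without the 3 hearts (0.00292, or 0.0340 with median centring) and without HET replicate 4 (0.0840, the upper end of -0.28 to 0.0840). Of the ratios, Ampd3 per Ak1 in KO against WT changed sign with a pseudocount of 0 (-0.000727) and without the 3 hearts (-0.0394), and Ampd3 per Ak3 in HET against WT without the 3 hearts (0.11). With 1 heart left out, the ratios ran as follows in log2: Ampd3 per Ak1 from -0.0718 to 0.0655 in KO against WT, -0.0837 to 0.0862 in HET against WT and -0.0860 to 0.0838 in KO against HET, Ampd3 per Ak3 from -0.20 to 0.12 in HET against WT and -0.22 to 0.10 in KO against HET, and Ak1 per Ak3 from -0.12 to 0.0304 in HET against WT and -0.13 to 0.0153 in KO against HET. In KO against WT, Ak1 per Ak3 ran from -0.14 to -0.0726 and Ampd3 per Ak3 from -0.15 to -0.0409. None of the ratio tests passed after adjustment over the 9. The lowest adjusted exact permutation p, 0.257, was reached by each of these last 2 ratios with 1 heart left out. Its unadjusted p of 0.0286 is the smallest that 3 hearts against 4 allow, so 1 ratio alone could not pass. On the deposited scale, where all genes share the divisor Tbp, r of Ak3 passed with all 4 lists (0.87, 0.90, 0.92 and 0.91) and r of Ampd3 with fatty acid oxidation (0.80) and glycolysis (0.84), and the last pair passed also with genotype means kept (0.59 and 0.72). Without the 2 farthest hearts Ak1 no longer passed with fatty acid oxidation (0.93) nor Ampd3 with the respiratory chain (0.58), and Ak3 changed sign with the tricarboxylic acid cycle (-0.0712) and fatty acid oxidation (-0.12). Over the 9 hearts left without the 3, no relation passed, with Ak1 at 0.83, 0.89, 0.76 and 0.41, Ampd3 at 0.95 with the respiratory chain and 0.85 with the tricarboxylic acid cycle, and Ak3 at -0.14 with the respiratory chain. Those hearts allow 216 rearrangements, with which 1 relation alone could not pass. With 1 heart left out, r of Ak1 stayed past the threshold at 0.88 to 0.99. Ak3 ran from 0.0865 to 0.81, 0.26 to 0.85, 0.34 to 0.83 and 0.23 to 0.71 over the lists, passing in all 4 without HET replicate 3 and in the last 3 without HET replicate 4. Ampd3 ran from 0.66 to 0.85 with the respiratory chain, lost without WT replicate 2 (0.79), and 0.57 to 0.77 with the tricarboxylic acid cycle, lost without any of WT replicates 1, 2 and 4 and HET replicates 1, 2 and 4. It ran from 0.36 to 0.69 with fatty acid oxidation and 0.33 to 0.76 with glycolysis, both passing without KO replicate 1 or 2. The cause of these changes was not tested. Depth limits Ampd3 most, with 220 to 319 counts per heart.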
